A study of Mus musculus with 202 samples.

Results

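The heat shock chaperones described here are 10 genes, Hspa4, Hspa8, Hspa2, Hspa9, Hsp90aa1, Hsp90ab1, Hspd1, Hspe1, Hsph1 and Hsf1, of 23995 gene symbols counted in single mouse oocytes. They were taken by symbol as a family of the cytosol and mitochondria together with the factor that controls them, and each had 1 line in the deposited count table. The family was selected on its group levels in these same libraries, so its values in the lineage comparisons are a description. Oocytes of C57Bl/6J mice at metaphase II (MII), the arrest before fertilisation, were profiled with Smart-seq2, which reads whole transcripts of 1 cell and carries no molecular identifiers. F1, F2 and F3 animals descended from F0 females on a control diet (CD) or the diet labelled HFHS. These females had received the androgen dihydrotestosterone (DHT) or its vehicle (Veh). The study asked how prenatal androgen relates to susceptibility to polycystic ovary syndrome over generations.

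Of 202 oocytes 157 were used, those whose libraries reached 100000 gene counts over 4000 or more detected genes. In F1 these were 8 CD+DHT, 14 HFHS+Veh, 13 HFHS+DHT and 10 CD+Veh oocytes. In F2 they were 25 CD+DHT oocytes of 5 animals, 20 HFHS+Veh of 4 animals, 5 HFHS+DHT and 16 CD+Veh of 4 animals. In F3 they were 13 CD+DHT, 13 HFHS+Veh of 2 animals and 20 CD+Veh oocytes. No library of F3 HFHS+Veh animal 25 was kept. Animals were inferred from the digits ahead of the point in each title, and the remaining groups named no animal. Groups follow the titles, which the characteristics contradict for all 15 F1 HFHS+Veh and all 5 F2 HFHS+DHT libraries (hormone) and for 8 F2 and 8 F3 HFHS+Veh libraries (generation). No group has a transgene or deleted gene in the labels.

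Heat shock proteins are molecular chaperones that bind unfolded or partly folded proteins. Hspa8, Hspa2 and Hspa4 belong to the HSP70 and HSP110 families of the cytosol, Hsph1 is a further HSP110, and Hspa9 (mortalin) is the HSP70 of the mitochondrial matrix. Hsp90aa1 and Hsp90ab1 are the inducible and the constitutive cytosolic HSP90. Hspd1 (HSP60) forms the folding chamber of the mitochondrial matrix and Hspe1 (HSP10) is its lid. Hsf1, heat shock factor 1, is the main transcriptional activator of the stress-inducible chaperone genes. In mice it is also a maternal-effect gene, and oocytes lacking it are known for low Hsp90aa1 and faulty maturation. An MII oocyte makes almost no new RNA, so its transcripts are largely those stored during growth.

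The promoters of 5 of the 10 genes had entries in a RefSeq table on GRCm38.p6, as windows of 250 bases before and 50 after a start. Each was searched on both strands for the heat shock element, the recognition motif of heat shock factors. It was written as GAA and TTC in either order with any 2 bases between them. A longer form had 3 such units in alternation, each 2 bases apart, and so contains the shorter. The shorter form stood in 15.1% of the 32544 windows of the table and the longer in 0.608%. The first sequence below belongs to the gene that differed most between generations in the results. The other windows are those of Hsph1 and Hspa2, also lower in F3 CD+Veh than in F2 CD+Veh. The motif is in capitals where it occurs.
Hspe1, chr1:55087898-55088197, plus strand: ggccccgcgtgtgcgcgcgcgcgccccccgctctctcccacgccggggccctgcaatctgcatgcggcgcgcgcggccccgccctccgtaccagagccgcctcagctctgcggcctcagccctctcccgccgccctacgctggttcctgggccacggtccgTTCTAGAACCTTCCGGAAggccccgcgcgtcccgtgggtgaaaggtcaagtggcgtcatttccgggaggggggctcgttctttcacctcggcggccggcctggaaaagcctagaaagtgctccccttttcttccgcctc
Hsph1, chr5:149636266-149636565, minus strand: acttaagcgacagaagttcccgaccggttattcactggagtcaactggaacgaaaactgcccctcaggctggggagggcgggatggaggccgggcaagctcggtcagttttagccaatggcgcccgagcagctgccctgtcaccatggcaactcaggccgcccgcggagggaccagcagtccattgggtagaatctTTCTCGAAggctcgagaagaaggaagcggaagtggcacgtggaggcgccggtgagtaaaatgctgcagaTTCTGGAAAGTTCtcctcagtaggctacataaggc
Hspa2, chr12:76404120-76404419, plus strand: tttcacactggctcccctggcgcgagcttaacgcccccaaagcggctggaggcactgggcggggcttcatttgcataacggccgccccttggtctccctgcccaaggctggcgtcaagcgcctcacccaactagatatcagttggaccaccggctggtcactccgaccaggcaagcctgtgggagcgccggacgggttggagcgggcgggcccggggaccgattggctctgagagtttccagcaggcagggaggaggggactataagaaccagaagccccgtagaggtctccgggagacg
The Hspe1 window held 3 overlapping matches starting 89, 84 and 79 bases before the start, in 1 unbroken run. The Hsph1 window held 3 matches, at 54 bases before and 15 and 20 bases after the start, and the second Hsph1 window held the same ones. The Hspa2 and Hspa4 windows held 0 matches. Hspe1 and Hspd1 lie head to head on chromosome 1, and 1 of the 2 Hspd1 windows shares 285 bases with that of Hspe1, including the same run read on the other strand. The other Hspd1 window held 0 matches. A match describes letters only.

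In GENCODE vM21 on GRCm38, Hspe1 spans 55088132 to 55091307 on the plus strand and Hspd1 spans 55077835 to 55088243 on the minus strand of chromosome 1. The gene models overlap at their 5′ ends. Whether counting used strand is not given in the sources used here, so reads in that overlap cannot be assigned to either gene. Hsp90aa1 lies on chromosome 12 (110690605 to 110702728, minus), Hsp90ab1 on chromosome 17 (45567775 to 45573271, minus) and Hspa8 on chromosome 9 (40800984 to 40810087, plus). Hspa4 lies on chromosome 11 (53259814 to 53300457, minus), Hspa2 on chromosome 12 (76404176 to 76406938, plus), Hsph1 on chromosome 5 (149614287 to 149636376, minus) and Hsf1 on chromosome 15 (76477422 to 76501913, plus). Hspa8, Hspe1, Hspd1 and the HSP90 genes have processed near-identical copies elsewhere in the genome, and how shared reads were counted is not given, so their levels are uncertain to that extent.

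All levels are shares of a library, so the amount of RNA per oocyte was not measured. Library totals in the oocytes used ran from 133654 to 16359078 gene counts. All 20 oocyte markers had counts in every group, with group medians of their summed level between 21897 and 43583 CPM, counts scaled to an equal library total. RNA of cumulus and granulosa cells, which surround the oocyte, differed between groups. The summed level of 32 markers had medians of 403, 1307, 226 and 328 CPM in F1 CD+DHT, HFHS+Veh, HFHS+DHT and CD+Veh. In F2 the medians were 143, 138, 99.5 and 125 CPM in CD+DHT, HFHS+Veh, HFHS+DHT and CD+Veh. In F3 they were 567, 2203 and 1577 CPM in CD+DHT, HFHS+Veh and CD+Veh, with a highest value of 58152 CPM in CD+Veh. Areg was at 0 in all 11 groups, and of the 32 markers 2 to 9 were at 0 in each group other than F2 HFHS+DHT, where 25 were. F3 CD+Veh oocyte 21 stood apart, with that highest cumulus sum and the lowest oocyte marker sum, 329 CPM. It held the highest Hspa9 (2221 CPM), Hsp90ab1 (2017 CPM), Hspa8 (345 CPM) and Hspd1 (138.8 CPM) of all oocytes used.

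The HSP90 genes were the most abundant family members per length. On the deposited RPKM scale, which divides reads by gene length and library total, Hsp90aa1 had a median of 243 over the 157 oocytes and ranked 266th of 23995 genes. Hsp90ab1 had a median of 179 RPKM and ranked 366th. The mitochondrial Hspa9 had 53.3 RPKM and Hsf1 52.9 RPKM, followed by Hspe1 at 28.5 RPKM. The remaining 5 genes were low, with Hspd1 at 8.17, Hsph1 at 4.84, Hspa8 at 3.73, Hspa2 at 2.90 and Hspa4 at 2.45 RPKM. Hspa8, the constitutive HSP70 of most cells, was thus far below both HSP90 genes per length. Hspa9, both HSP90 genes and Hsf1 had a count in all 157 oocytes, against 153 for Hspe1 and Hsph1, 154 for Hspd1, 148 for Hspa8, 144 for Hspa4 and 123 for Hspa2.

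**Figure D1:**
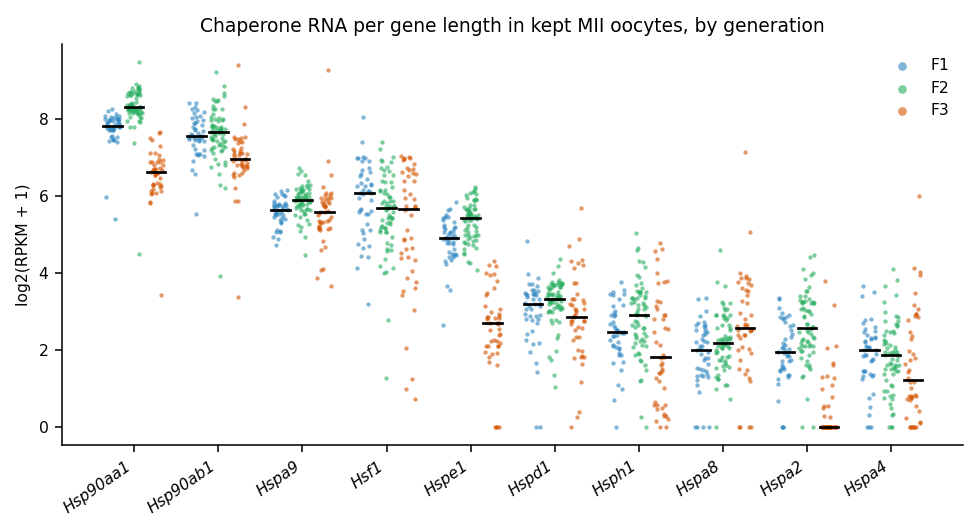
Deposited RPKM of the 10 genes as log2(RPKM + 1), 1 point per oocyte, by generation, with bars at the medians. Hsp90aa1 and Hsp90ab1 lie highest (medians of 243 and 179 RPKM over all oocytes) and Hspe1, Hsp90aa1 and Hspa2 lie lower in F3 than in F2 and F1.

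When the 11 groups were ordered by median CPM, neighbouring groups had overlapping quartile ranges in all 10 neighbouring pairs for 8 of the 10 genes. For Hsp90aa1 this held in 8 of 10 pairs and for Hspe1 in 9 of 10. The same was not counted over all genes, so these counts have no background and show no trait of the chaperone genes. Highest in Hsp90aa1 was F2 HFHS+DHT (median 943.5 CPM) and lowest F3 CD+Veh (256.5 CPM), and the F2 groups stood first, the F1 groups next and the F3 groups last in that order. Hspe1 was highest in F2 CD+Veh (34.3 CPM) and lowest in F3 HFHS+Veh (2.53 CPM), and its 3 lowest groups were those of F3. Hspa4 was highest in F3 CD+DHT (18.96 CPM) and lowest in F3 HFHS+Veh (3.37 CPM), so its extremes fell within F3.

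In F2, animals served as replicates and counts summed per animal were tested with edgeR's quasi-likelihood test over 11962 genes. None of the 10 chaperone genes passed an adjusted p of 0.05 in CD+DHT or in HFHS+Veh oocytes. The background was 0% of genes called in each comparison, with 220 genes in CD+DHT and 118 in HFHS+Veh at an unadjusted p under 0.05, and DESeq2 called 2 and 1 genes. Both comparisons share the 4 CD+Veh animals. Every adjusted p of the 10 genes was at least 0.9999 in the edgeR fit, and for each gene the range of the treated animals overlapped that of the controls. The labels do not say whether animals of a group were littermates, so the p-values measure the spread between these animals.

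Hspa4, an HSP110-type exchange factor for HSP70, gave the most negative fold of the 10 genes in both comparisons. Its level was 9.22, 7.63, 19.08, 9.84 and 15.3 CPM in the 5 CD+DHT animals and 9.02, 18.3, 15.6 and 11.01 CPM in the 4 HFHS+Veh animals. In the 4 CD+Veh animals it was 17.203, 45.6, 10.97 and 20.7 CPM. CD+Veh animal 3 stood above all others and CD+Veh animal 13 lay among the treated animals. The log2 fold was -0.70 (SE 0.37, 95% interval -1.50 to 0.09) in CD+DHT and -0.65 (SE 0.40, interval -1.49 to 0.19) in HFHS+Veh. Without CD+Veh animal 3 these became -0.37 and -0.31.

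Hspa2, the HSP70 best known from male meiosis, had 9.499, 11.4, 16.4, 37.2 and 8.85 CPM in CD+DHT animals and 7.83, 11.3, 20.1 and 13.7 CPM in HFHS+Veh animals. CD+Veh animals had 6.24, 6.89, 13.9 and 12.7 CPM. CD+DHT animal 9 was the only animal above 25 CPM, and all others overlapped. Its log2 fold was 0.91 (SE 0.55, interval -0.24 to 2.07) in CD+DHT and 0.45 (SE 0.57, interval -0.75 to 1.65) in HFHS+Veh. Hsph1, which also exchanges nucleotide on HSP70, averaged 18.6 ± 10.37 CPM in CD+DHT (SD, n = 5), 21.9 ± 3.13 in HFHS+Veh and 30.8 ± 16.9 in CD+Veh (SD, n = 4 each). Its log2 folds were -0.53 (SE 0.35) and -0.37 (SE 0.37). Hspa8 averaged 7.0 ± 1.34 CPM in CD+DHT, 10.06 ± 6.14 in HFHS+Veh and 11.05 ± 6.02 in CD+Veh, with log2 folds of -0.46 (SE 0.41) and -0.0054 (SE 0.43).

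Of the HSP90 genes neither differed between the groups beyond the spread between animals. Hsp90aa1 averaged 989 ± 145 CPM in CD+DHT (SD, n = 5), 993 ± 218 in HFHS+Veh and 994 ± 188 in CD+Veh (SD, n = 4 each). Its log2 fold was 0.14 (interval -0.17 to 0.46) in CD+DHT and 0.06 (interval -0.27 to 0.39) in HFHS+Veh. Hsp90ab1 averaged 543 ± 118 CPM in CD+DHT, 592 ± 229 in HFHS+Veh and 612 ± 163 in CD+Veh, with log2 folds of -0.01 (interval -0.43 to 0.40) and 0.0026 (interval -0.43 to 0.44). All 4 intervals lie within a log2 fold of 0.50 either way, but without the 8 HFHS+Veh oocytes whose characteristics name F3 the HFHS+Veh folds were 0.23 for Hsp90aa1 and 0.38 for Hsp90ab1. The same step gave 0.44 for Hsf1 and -0.57 for Hspa8, and none of the 10 genes was called.

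Of the mitochondrial chaperones, Hspa9 averaged 163 ± 36.7 CPM in CD+DHT, 190.2 ± 18.05 in HFHS+Veh and 199.4 ± 43.6 in CD+Veh, with log2 folds of -0.15 (SE 0.15) and 0.01 (SE 0.16). Hspe1 had 42.4, 37.3, 32.1, 27.1 and 33.1 CPM in CD+DHT animals and 39.0, 32.1, 22.35 and 26.37 CPM in HFHS+Veh animals. In CD+Veh animals it had 46.9, 45.0, 29.0 and 32.8 CPM. The groups overlapped, and the log2 folds were -0.0022 (SE 0.19) and -0.29 (SE 0.20). Hspd1 averaged 19.6 ± 6.52 CPM in CD+DHT, 21.9 ± 3.59 in HFHS+Veh and 21.7 ± 6.84 in CD+Veh, with log2 folds of 0.00044 (SE 0.26) and 0.10 (SE 0.27). Hsf1 ranged widely within groups, at 166, 141, 71.95, 43.5 and 147 CPM in CD+DHT animals, 196, 139.997, 50.6 and 116 CPM in HFHS+Veh animals and 174, 139, 88.1 and 86.8 CPM in CD+Veh animals. Its log2 folds were 0.02 (SE 0.33) and 0.09 (SE 0.34). As a list the 10 genes had median log2 folds of -0.01 in CD+DHT (4 higher, 6 lower) and 0.01 in HFHS+Veh (6 higher, 4 lower), beside -0.01 and 0.02 over all genes tested.

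**Figure D2:**
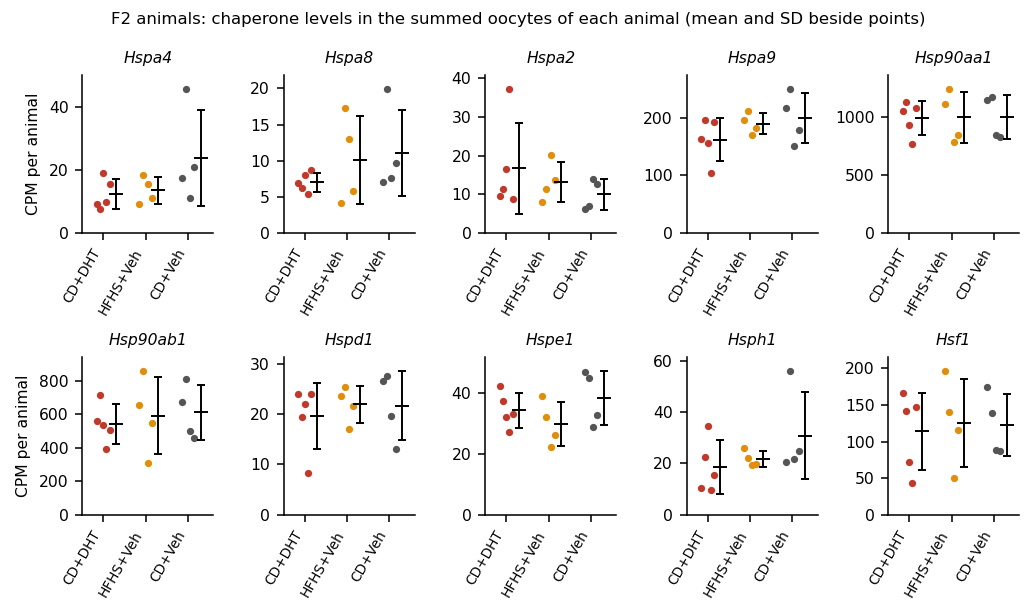
CPM of the 10 genes per F2 animal, with means and SD, for CD+DHT (5 animals), HFHS+Veh (4) and CD+Veh (4). The groups overlap for each gene; CD+DHT animal 9 is highest for Hspa2 (37.2 CPM) and CD+Veh animal 3 is highest for Hspa4 (45.6 CPM).

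Across the 13 animals, the chaperone levels moved with the number of genes detected. As a description without a test, the correlation of an animal's level with the median genes of its oocytes was 0.86 for Hsf1, 0.78 for Hsp90ab1, 0.74 for Hsp90aa1, 0.72 for Hspa9 and 0.70 each for Hspd1 and Hspe1. It was -0.80 for Hspa2 and between 0.10 and 0.25 for Hspa4, Hspa8 and Hsph1. Animals 8 and 9 of CD+DHT (7956 and 7771 genes) and 10 of HFHS+Veh (8447 genes) had the fewest. They also had the 3 lowest Hsf1 levels and the 3 highest Hspa2 levels of the 13. The part of detection in these levels was not tested.

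The remaining lineage comparisons have no animal named in at least 1 group, so each group is 1 sample and has no test. Counts were pooled over oocytes, with exact Poisson 95% intervals in brackets that cover counting error only. A gene counted as past the fold at a log2 fold of 1 or more either way with 20 CPM in either group. In F1, 1 of the 8 chaperone genes that reached 20 CPM passed in CD+DHT, 0 of 8 in HFHS+Veh and 0 of 8 in HFHS+DHT, against backgrounds of 1.27%, 1.37% and 1.44% of genes. In F2 HFHS+DHT 1 of 8 passed (background 1.41%). In F3, 0 of 6 passed in CD+DHT (background 8.09%) and 2 of 7 in HFHS+Veh (background 8.5%). All of these that passed were Hspa4 or Hsf1, and all were lower than in CD+Veh. Controls are shared within each generation.

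Hspa4 in F1 had pooled levels of 9.62 CPM [7.58 to 12.04] in CD+DHT and 20.97 CPM [19.101 to 22.97] in CD+Veh, a log2 fold of -1.12. Its lowest, median and highest oocyte stood at 0, 9.195 and 28.02 CPM in CD+DHT and at 0, 15.3 and 44.2 CPM in CD+Veh. The groups overlapped, and CD+Veh oocyte 1 alone exceeded 30 CPM. The fold was -0.72 without it, -0.96 without CD+DHT oocyte 6 and -0.48 between means of oocytes, none of which reached 1. In F1 HFHS+Veh Hspa4 was at 11.5 CPM [10.52 to 12.6], a log2 fold of -0.86, with oocyte medians of 13.9 CPM there and 15.3 CPM in CD+Veh; it passed the fold without HFHS+Veh oocyte 1 (-1.05) or CD+Veh oocyte 6 (-1.09). In F1 HFHS+DHT it was at 17.6 CPM [15.7 to 19.7], a log2 fold of -0.25, which was 0.15 without CD+Veh oocyte 1.

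In F2 HFHS+DHT the 5 oocytes had 7.27, 8.68, 13.104, 15.9 and 17.38 CPM of Hspa4. The 16 CD+Veh oocytes had a lowest value of 1.09, a median of 15.7 and a highest of 60.2 CPM, so all HFHS+DHT oocytes lay within their range. Pooled levels were 12.4 CPM [10.9 to 13.97] in HFHS+DHT and 26.68 CPM [25.46 to 27.9] in CD+Veh (log2 fold -1.11). TMM scaling, which shifts every fold of this comparison by 0.13, gave -0.97. The fold was -0.83 without HFHS+DHT oocyte 1, -0.93 without oocyte 1 and -0.91 without oocyte 4 of CD+Veh animal 3. Hspe1 was at 22.42 CPM [20.5 to 24.5] in HFHS+DHT and 38.3 CPM [36.9 to 39.8] in CD+Veh, a log2 fold of -0.77 that did not reach the fold. The 8 measured chaperone genes were all lower in HFHS+DHT, with a median log2 fold of -0.33 beside -0.03 over all genes. Of 19 oocyte markers 15 were lower there too, 2 past the fold, with a median of -0.32, and of 4 measured cumulus markers 3 were lower past the fold, with a median of -5.27. Their part in the chaperone values was not tested. With TMM, Hspa9 (0.11), Hsp90aa1 (0.05) and Hsph1 (0.03) were higher instead.

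In F3 HFHS+Veh Hspa4 had 9 of 13 oocytes with a count, with a lowest value of 0, a median of 3.37 and a highest of 76.7 CPM. In F3 CD+Veh 18 of 20 oocytes had a count, with a lowest value of 0, a median of 7.15 and a highest of 294 CPM, the last in oocyte 19. Pooled levels were 6.92 CPM [5.18 to 9.05] in HFHS+Veh and 23.3 CPM [22.06 to 24.5] in CD+Veh (log2 fold -1.75). The fold was -1.01 without CD+Veh oocyte 19, which was rich in cumulus markers, -0.77 without all oocytes rich in them and -0.94 without HFHS+Veh animal 22. It was -2.71 without oocyte 5 of HFHS+Veh animal 26 and -2.92 in oocytes with at least 500000 counts and 6000 genes. In F3 CD+DHT the pooled level of 16.5 CPM [15.3 to 17.7] gave a log2 fold of -0.50, while the oocyte median of 18.96 CPM was above the 7.15 CPM of CD+Veh. Single libraries set that sign, since the pooled fold was 0.24 without CD+Veh oocyte 19 and -1.20 without CD+DHT oocyte 14.

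Hsf1 in F3 HFHS+Veh had a lowest value of 1.95, a median of 48.1 and a highest of 247 CPM. In F3 CD+Veh it had a lowest value of 1.34, a median of 113 and a highest of 264 CPM. The ranges overlapped almost fully, although the middle of the HFHS+Veh oocytes lay lower. Pooled levels were 73.1 CPM [67.2 to 79.4] in HFHS+Veh and 160.0 CPM [157 to 163] in CD+Veh, a log2 fold of -1.13, which was -0.86 without animal 22, -0.93 without oocyte 1 of that animal and -0.77 between means of oocytes. The libraries also differed in depth, with median totals of 585662 counts in HFHS+Veh and 2616470 in CD+Veh; the part of depth was not tested. In F3 CD+DHT Hsf1 was at 185.9 CPM [182 to 189.8], a log2 fold of 0.22. In F1 HFHS+DHT its pooled level was 129 CPM [123.5 to 134], against 156 CPM [151 to 161] in CD+Veh, a log2 fold of -0.28 (-0.24 with TMM). The fold was 0.15 without CD+Veh oocyte 6 and -0.70 without HFHS+DHT oocyte 10. Oocyte medians were 76.1 CPM in HFHS+DHT and 173 CPM in CD+Veh, a log2 fold of -1.18, and means of oocytes gave -1.23. The direction and size thus depended on how oocytes were combined and on single libraries.

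**Figure D3:**
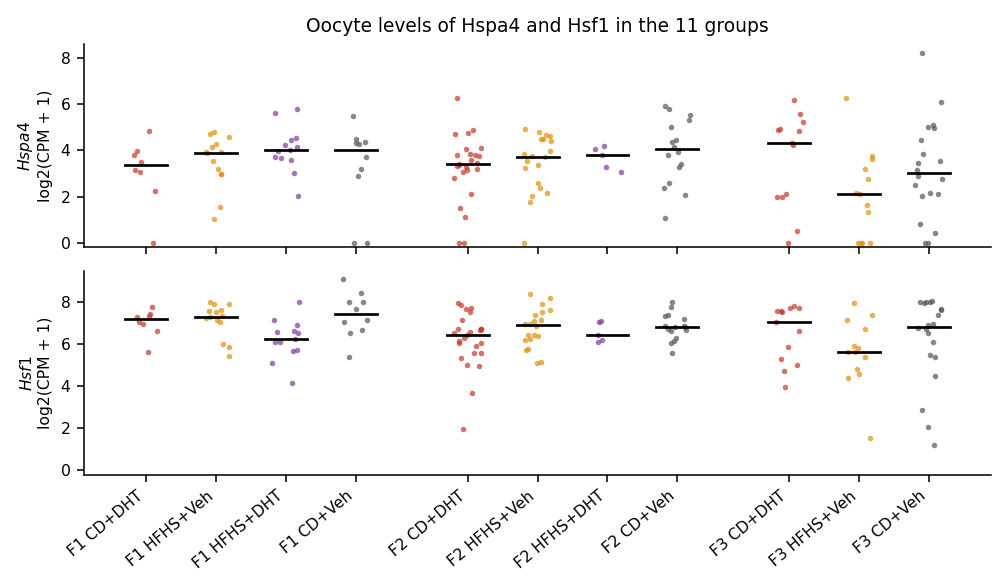
Hspa4 and Hsf1 as log2(CPM + 1), 1 point per oocyte in the 11 groups, with bars at the medians. Oocytes of lineage and CD+Veh groups overlap throughout; the lowest group medians are 3.37 CPM of Hspa4 and 48.1 CPM of Hsf1, both in F3 HFHS+Veh.

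Among the other genes, Hsph1 in F3 HFHS+Veh was at 26.103 CPM [22.61 to 29.98] against 14.201 CPM [13.26 to 15.2] in CD+Veh, a log2 fold of 0.88. It passed the fold without CD+Veh oocyte 3 (1.28), CD+Veh oocyte 9 (1.07) or oocyte 1 of HFHS+Veh animal 22 (1.07), and was at 0.38 without oocyte 7 of that animal and at 0.49 between means of oocytes. Hspa2 in F1 CD+DHT was at 13.54 CPM [11.1 to 16.4] and at 6.07 CPM [5.08 to 7.19] in CD+Veh, a log2 fold of 1.16 at a level under 20 CPM that was 0.32 without CD+DHT oocyte 6. Its CD+DHT oocytes lay between 3.48 and 21.98 CPM and its CD+Veh oocytes between 0 and 12.6 CPM, so the groups overlapped. Hsp90aa1, Hsp90ab1 and Hspa9 had absolute log2 folds of pooled counts of at most 0.43 in the 6 untested lineage comparisons. The mean of oocytes gave larger values in F3, with -1.01 for Hspa9 and 0.66 for Hsp90aa1 in CD+DHT and -0.79 for Hspa9 and -0.55 for Hsp90ab1 in HFHS+Veh. In F3 CD+Veh, oocyte 21 had 2221 CPM of Hspa9, the next oocyte 365 CPM. It had 2017 CPM of Hsp90ab1, the next 796 CPM. Between oocyte medians the folds were -0.20 for Hspa9 and 0.62 for Hsp90aa1 in CD+DHT. In HFHS+Veh they were 0.05 for Hspa9 and -0.15 for Hsp90ab1. Hspd1 was lower than CD+Veh in all 6 untested comparisons, with log2 folds between -0.27 and -0.58.

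Levels also differed between generations. The control groups of each generation were set side by side after the data had been seen, so these values describe libraries. Of the 8 chaperone genes at 20 CPM or more, 3 passed the fold between F3 CD+Veh and F2 CD+Veh, all lower in F3, where 42% of all genes passed in either direction. The count was 2 with TMM or RPKM and 4 at a floor of 5 CPM or without oocytes rich in cumulus markers, where Hspa4 was at -1.18. Between F3 CD+Veh and F1 CD+Veh 2 of 8 passed, both lower in F3 (background 36.5%), and between F2 CD+Veh and F1 CD+Veh 0 of 8 did (background 4.53%). These shares of 3, 2 and 0 of 8 are near or below the backgrounds. They are no result about the chaperone genes as a set. TMM scaling shifted every fold of the F3 to F2 comparison by 0.41 and of the F3 to F1 comparison by 0.23. Generation, library preparation and sequencing of these groups cannot be told apart.

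Hspe1, the HSP60 lid, was lowest in F3 relative to the other generations. Its lowest, median and highest oocyte stood at 4.03, 22.49 and 44.8 CPM in F1 (45 oocytes), at 12.3, 32.2 and 56.2 CPM in F2 (66 oocytes) and at 0, 4.17 and 14.6 CPM in F3 (46 oocytes). All 46 F3 oocytes lay below the F2 median, and 42 lay below the lowest F2 oocyte. Pooled levels were 4.12 CPM [3.62 to 4.67] in F3 CD+Veh and 38.3 CPM [36.9 to 39.8] in F2 CD+Veh, a log2 fold of -3.22 (-2.81 with TMM). Against F1 CD+Veh, at 25.496 CPM [23.4 to 27.7], it was -2.63. The lineage groups of F3 stood at 4.68 CPM [4.09 to 5.33] in CD+DHT and 3.13 CPM [2.01 to 4.66] in HFHS+Veh.

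Its partner Hspd1 pooled at 22.19 CPM [21.01 to 23.4] in F3 CD+Veh and 22.51 CPM [21.4 to 23.7] in F2 CD+Veh, a log2 fold of -0.02 (0.38 with TMM). Between oocyte medians, at 16.98 and 24.04 CPM, the fold was -0.50. Over all groups the Hspd1 median was 14.66 CPM in F3, 21.06 CPM in F2 and 18.93 CPM in F1. Of 46 F3 oocytes 35 lay below the F2 median. Pooled Hspe1 counts were 0.298, 0.211 and 0.186 times those of Hspd1 in F3 CD+DHT, HFHS+Veh and CD+Veh. The same ratio lay between 1.08 and 1.80 in the 8 F2 and F1 groups, so no F3 group overlapped them. By the lengths described below, Hspe1 has 765 bases and Hspd1 2323 bases. Median log2 folds of F3 over F2 CD+Veh in their length classes were -2.31 and 0.16. The part of length in this ratio was not tested, and other gene pairs were not compared.

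Hsp90aa1 was likewise low in F3. Its lowest, median and highest oocyte stood at 121, 647 and 872 CPM in F1, at 61.2, 910 and 2026 CPM in F2 and at 32.3, 280 and 579 CPM in F3. All 46 F3 oocytes lay below the F2 median, but so did all 45 F1 oocytes. Only 1 F3 oocyte lay below the lowest F1 oocyte, and 1 below the lowest F2 oocyte. Pooled levels were 251 CPM [247 to 255.5] in F3 CD+Veh and 1007 CPM [999.5 to 1015] in F2 CD+Veh, a log2 fold of -2.002 (-1.60 with TMM). Hsp90ab1 was at 363 CPM [358 to 368] in F3 CD+Veh and 637 CPM [631 to 643] in F2 CD+Veh, a log2 fold of -0.81 (-0.40 with TMM). The ratio of Hsp90aa1 to Hsp90ab1 counts lay between 1.21 and 1.27 in the F1 groups and between 1.58 and 2.02 in the F2 groups. It was 0.752, 0.860 and 0.692 in F3 CD+DHT, HFHS+Veh and CD+Veh, below every F1 and F2 group. Other gene pairs were not compared, and 42% of all genes passed the fold between F3 CD+Veh and F2 CD+Veh. The ratio therefore shows no trait of the HSP90 pair.

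Hspa2 was detected in 42 of 45 F1 oocytes (median 6.95 CPM), in 64 of 66 F2 oocytes (median 11.8 CPM) and in 17 of 46 F3 oocytes (median 0 CPM). Its pooled level was 3.21 CPM [2.77 to 3.70] in F3 CD+Veh, of which oocyte 11 gave the highest single value at 19.21 CPM, and 9.91 CPM [9.17 to 10.7] in F2 CD+Veh. In F3 CD+DHT it pooled at 1.002 CPM [0.739 to 1.33] and in F3 HFHS+Veh at 1.17 CPM [0.537 to 2.23]. Against F3 CD+Veh the log2 folds were -1.68 and -1.45, and -0.71 and -0.49 without CD+Veh oocyte 11. The mean of oocytes gave 0.70 in CD+DHT, the opposite sign, and without oocyte 3 of animal 22 HFHS+Veh stood at -3.45. Hsph1 pooled at 14.201 CPM in F3 CD+Veh and 35.02 CPM [33.6 to 36.5] in F2 CD+Veh (log2 fold -1.30; -0.90 with TMM). Its F3 CD+Veh oocytes had a lowest value of 0.389, a median of 6.42 and a highest of 93.6 CPM, and its F2 CD+Veh oocytes had 4.53, 24.1 and 83.1 CPM. Hspa9 (-0.20), Hspa4 (-0.20) and Hsf1 (0.42) had smaller log2 folds, and those of Hspa9 and Hspa4 turned to 0.20 and 0.21 with TMM. Without F3 CD+Veh oocyte 19 Hspa4 stood at -0.94. Hspa8 was under 20 CPM in both groups, at 17.197 CPM in F3 CD+Veh and 12.5 CPM in F2 CD+Veh.

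**Figure D4:**
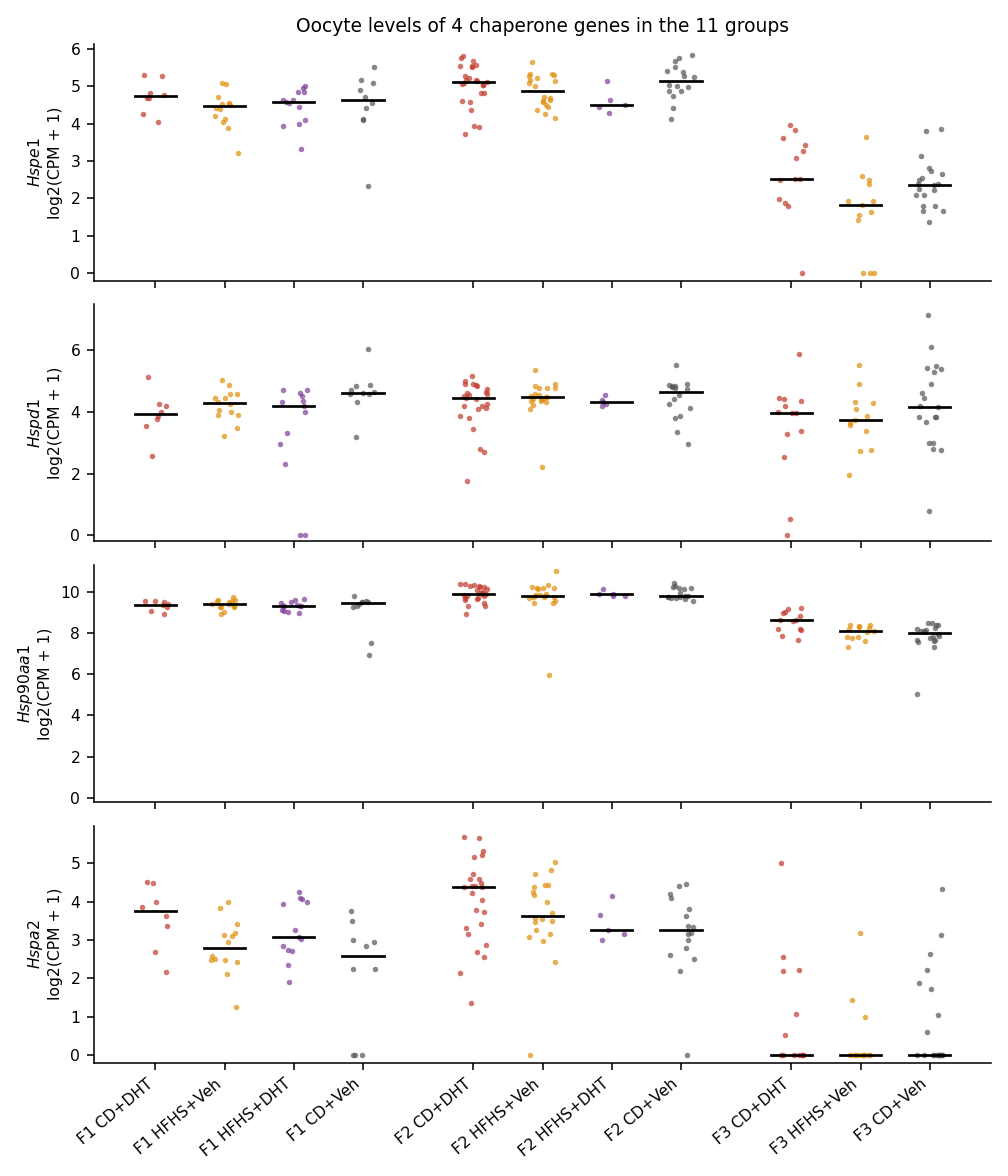
Hspe1, Hspd1, Hsp90aa1 and Hspa2 as log2(CPM + 1), 1 point per oocyte in the 11 groups, with bars at the medians. F3 oocytes sit low for Hspe1 (median 4.17 CPM, against 32.2 in F2), Hsp90aa1 (280 against 910 CPM) and Hspa2 (0 against 11.8 CPM). The F3 median of Hspd1 is lower by less (14.66 against 21.06 CPM). For Hspe1 42 of 46 F3 oocytes lie below the lowest F2 oocyte, against 1 for Hsp90aa1 and 3 for Hspd1. The lowest F2 oocyte of Hspa2 is at 0 CPM.

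Gene length moved with the difference between generations, and this look was added after the data had been seen. A length was implied for each gene by the deposited RPKM and counts, and it was 765 bases for Hspe1, the shortest of the 10, and 2011 to 4622 bases for the others. Of 292 genes under 1000 bases, 86% were lower past the fold in F3 CD+Veh than in F2 CD+Veh, with a median log2 fold of -2.31. The median was -0.35 for 1039 genes of 1000 bases or more but under 2000, and 0.16 for 1152 genes of 2000 bases or more but under 3000. Hspe1 at -3.22 lay within its length class, where 22.95% of genes had a lower fold. Hsp90aa1, at 2841 bases, had a fold below most of its class, with 9.201% of genes lower, and Hsph1, at 3464 bases, had 17.9% of its class lower. Between F2 CD+Veh and F1 CD+Veh the median of genes under 1000 bases was 0.21. Cumulus markers also moved with generation, with 9 of 9 measured markers higher in F3 CD+Veh than in F2 CD+Veh and 6 of them past the fold. Of 19 oocyte markers 7 were lower and 1 higher past the fold, with a median log2 fold of -0.49, beside -0.51 for the 8 chaperone genes. Without the oocytes rich in cumulus markers Hspe1 was at -3.23 and Hsp90aa1 at -2.02. The part of length and of oocyte marker level in the chaperone values was not tested.

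**Figure D5:**
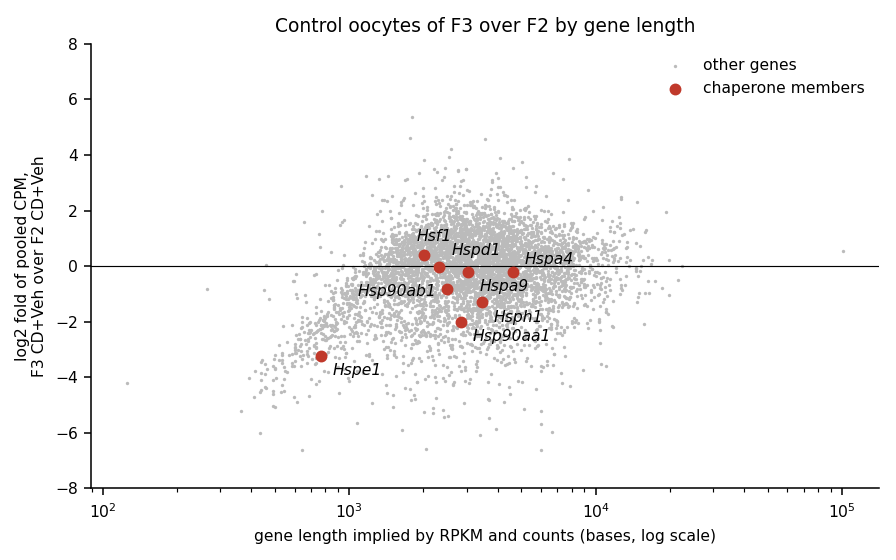
Log2 fold of pooled CPM of F3 CD+Veh over F2 CD+Veh against implied gene length (log axis) for 5236 genes at 20 CPM or more in either group, with the 8 measured chaperone genes in red. Short genes lie mostly below 0 (median -2.31 under 1000 bases), Hspe1 among them, while Hsp90aa1 (-2.002) lies low for its length.

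The partners of these chaperones were taken from fixed lists. Per length, the most abundant were Pfdn4, a subunit of prefoldin, which hands unfolded actin and tubulin to the TRiC chaperonin (median 2304 RPKM), and Dnajb4, an HSP40 that delivers clients to HSP70 (509.5 RPKM). They were followed by Hsbp1, a heat shock factor binding protein (388 RPKM), Dnajc8 (277 RPKM), Hspa14, a ribosome-linked HSP70 (209 RPKM), and the HSP90 cochaperones Sugt1 (179 RPKM) and Ahsa1 (168 RPKM). In F2, 0 genes of these lists were called in either comparison by the edgeR test. Of 18 HSP40 genes tested 8 were higher and 10 lower in CD+DHT, and 9 and 9 in HFHS+Veh. Of 13 HSP90 cochaperones 6 were higher and 7 lower in each. Of 10 exchange factors and regulators of HSP70 tested 9 were lower in CD+DHT (median log2 fold -0.30) and 7 in HFHS+Veh (-0.16), beside medians of -0.01 and 0.02 over all genes. Of 16 mitochondrial partners 9 were higher in CD+DHT and 4 in HFHS+Veh. The 8 TRiC subunits tested divided into 4 higher and 4 lower in CD+DHT and into 3 higher and 5 lower in HFHS+Veh.

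In the untested comparisons within a generation, 3 partner genes passed the fold, 1 of 46 measured in F2 HFHS+DHT (background 1.41%), 1 of 38 in F3 CD+DHT (background 8.09%) and 1 of 37 in F3 HFHS+Veh (background 8.5%). In F1, 0 of 41, 43 and 42 passed in CD+DHT, HFHS+Veh and HFHS+DHT. These shares of 2.17%, 2.63% and 2.7% are near or below the backgrounds and are no result about the partners. Timm44, which anchors Hspa9 at the import channel, was at 16.8 CPM in F2 HFHS+DHT and 34.3 CPM in F2 CD+Veh (log2 fold -1.03). Hspa13 was at 47.4 CPM in F3 CD+DHT and 19.52 CPM in F3 CD+Veh (1.28). Clpx, the unfoldase of a matrix protease, was at 39.4 CPM in F3 HFHS+Veh and 17.8 CPM in F3 CD+Veh (1.15).

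Between F3 CD+Veh and F2 CD+Veh many partners passed the fold, in both directions, beside the 42% of all genes that did. Of 14 measured HSP40 genes 9 were lower and 2 higher, with a median log2 fold of -1.26 beside -0.11 over all genes. Lower were Dnajc21 (61.1 CPM in F3, 342 CPM in F2) and Dnaja1 (9.83 and 26.01 CPM in F3 and F2), and higher were Dnajb4 (2483 and 1090 CPM in F3 and F2) and Dnajb1 (149 and 62.0 CPM), an HSP40 known as a heat shock target. Of 5 measured prefoldin subunits 4 were lower, Pfdn1 most (2.47 CPM in F3 CD+Veh and 123.5 CPM in F2 CD+Veh). Among 9 HSP90 cochaperones 3 were lower and 1 higher. Ptges3, the p23 that stabilises client-bound HSP90, was at 25.05 CPM in F3 CD+Veh and 269 CPM in F2 CD+Veh. Chordc1 was at 1002 CPM in F3 CD+Veh and 88.5 CPM in F2 CD+Veh, a log2 fold of 3.501. Of 7 TRiC subunits 1 was higher and 1 lower, and of 6 mitochondrial partners 3 were lower. Hsf5, a germ cell heat shock factor, was at 72.8 CPM in F3 CD+Veh and 265 CPM in F2 CD+Veh.

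Few of the chaperone genes varied together from oocyte to oocyte. As a description, the Pearson correlation of log2(CPM + 1) of Hsp90aa1 and Hspe1 over 157 oocytes was 0.69, and after subtracting each group's mean it was 0.05. Hspa2 and Hsp90aa1 had 0.63 and 0.13. Hspa9 and Hsp90ab1 kept 0.45 after subtraction, Hsp90aa1 and Hspa4 0.42 and Hsp90ab1 and Hspd1 0.42. All points share library depth within an oocyte.

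The genes with the most similar pattern, among 4588 with a mean of at least 20 CPM, differed by member. Hsp90aa1 was most like Oosp3 (0.94), Mphosph8 (0.92) and Plac8 (0.92), and after subtraction of group means most like Cmtm8 (0.85). Hspe1 was most like Snrpf (0.88), Cox8a (0.86) and Zmat2 (0.86), and after subtraction its nearest gene was Iscu (0.39). Hsf1 was most like Rnf114 (0.75), Cdc42se2 (0.75) and Klf17 (0.73), and Rnf114 (0.74) stayed nearest after subtraction. Hspa2 was nearest to Khsrp (0.80), Acot2 (0.80) and Jag1 (0.79), Hsp90ab1 to Sdc1 (0.73), Ccnl2 (0.70) and Daxx (0.70), and Hspa9 to Pdcd6ip (0.63), Dag1 (0.59) and Sdc1 (0.59). Hspa8 was nearest to Pdia4 (0.61), Ldha (0.53) and Tpm4 (0.52). Hspa8 also had the highest correlation of the 10 genes with the summed cumulus and granulosa markers (0.48), with Hsp90ab1 next (0.15). The part of cumulus RNA in the Hspa8 pattern was not tested. Hspd1 was nearest to Thoc3 (0.52), Hsph1 to Hdlbp (0.49) and Hspa4 to Ybx1 (0.45).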

How the data were processed

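Single MII oocytes were sequenced with Smart-seq2, per the labels. The authors deposited gene counts (24582 lines, 92 of them spike-ins) and RPKM values; the submitters' processing notes list STAR 2.4.2a, Seurat 2.0 and mm10. How reads were counted, on which annotation and whether by strand is not given in the sources used here. Of the files, 3 normalised tables were not used. Repeated symbols were summed (494 lines), spike-ins left library sizes, and oocytes under 100000 counts or 4000 genes were left out (45 of 202). No libraries of a group were identical (0 pairs). For F2, counts per animal were fitted with edgeR 4.0.16 in R 4.3.3 (quasi-likelihood, TMM, filterByExpr, Benjamini-Hochberg adjustment, threshold 0.05), CD+DHT, HFHS+Veh and CD+Veh together; the script was tested on simulated data. Other groups were pooled as CPM without a test. PCR copies are not independent molecules, so intervals cover counting error only. DESeq2 1.42.0, limma 3.58.1, other scalings, filters and left-out libraries were alternatives. Named genes were the 10 members, partners past a threshold or highest in their list, and the genes most like a member. The members and lists were chosen with earlier results of these data known.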

Additional observations from a re-analysis of the deposited data

Results flagged for a closer look

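In groups of 4 to 10 samples, the highest or lowest sample of a chaperone gene was called apart when its gap to the next sample, over the group's whole range, passed Dixon's 95% critical value. Of 60 sets examined, each 1 gene in 1 group, 8 had such a sample. Chance gives about 1 in 20 for independent sets of normally distributed values. These sets share animals and oocytes, and the shape of the CPM values was not checked. The count of 8 therefore cannot be read as more than chance. CD+DHT animal 9 of F2 was apart in Hspa2 (37.2 CPM, the next animal at 16.4 CPM) and was lowest in Hspd1 (8.404 CPM, the next at 19.49 CPM); it also had the fewest genes detected of the 13 animals (7771). CD+Veh animal 3 of F2 was highest in Hsph1 (55.9 CPM, the next at 24.8 CPM). In F1 CD+DHT, oocyte 2 was highest in Hsp90ab1 (768 CPM, the next at 537 CPM) and oocyte 7 in Hspd1 (34.2 CPM, the next at 18.3 CPM). In F1 CD+Veh, oocyte 1 was highest in Hspa4 (44.2 CPM, the next at 21.6 CPM) and oocyte 8 in Hspd1 (65.4 CPM, the next at 28.3 CPM). In F2 HFHS+DHT, oocyte 3 was lowest in Hspa9 (155 CPM, the next at 198 CPM).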

How the results depend on the processing

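The count of chaperone genes past the fold moved with how oocytes were combined; the causes were not tested. With the mean of oocytes it was 0 in F1 CD+DHT, 1 in F1 HFHS+DHT, 0 in F2 HFHS+DHT and 2 in F3 CD+DHT; with the median it was 0, 1 and 0 in the first 3 and 1 in F3 HFHS+Veh. With deposited RPKM it was 0 in F1 CD+DHT, 1 in F1 HFHS+DHT, 0 in F2 HFHS+DHT and 0 in F3 HFHS+Veh. A floor of 5 CPM gave 2 in F1 CD+DHT, TMM gave 0 in F2 HFHS+DHT, leaving out F3 HFHS+Veh animal 22 gave 0, and leaving out oocytes rich in cumulus markers (a choice made after seeing the data) gave 1 in F1 HFHS+Veh and 1 in F3 HFHS+Veh. Leaving out 1 oocyte at a time gave 0 to 1 in F1 CD+DHT (0 without CD+DHT oocyte 6 or CD+Veh oocyte 1), F1 HFHS+Veh (1 without HFHS+Veh oocyte 1 or CD+Veh oocyte 6), F2 HFHS+DHT (0 without HFHS+DHT oocyte 1 or oocyte 1 or 4 of CD+Veh animal 3) and F3 CD+DHT (1 without CD+DHT oocyte 14), and 1 to 3 in F3 HFHS+Veh (1 without CD+Veh oocyte 19).

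Counts over all genes moved too. The mean of oocytes gave 195, 204, 391, 37, 763 and 783 genes in F1 CD+DHT, F1 HFHS+Veh, F1 HFHS+DHT, F2 HFHS+DHT, F3 CD+DHT and F3 HFHS+Veh, RPKM gave 105, 125, 223, 28, 208 and 175, and 5 CPM gave 443, 420, 443, 612, 1423 and 1429. Medians gave 363 in F1 HFHS+DHT and 137 in F2 against F1 CD+Veh, TMM 40 in F2 HFHS+DHT and leaving out cumulus-rich oocytes 39 in F1 HFHS+Veh. Between CD+Veh groups 5 CPM gave 3716 (F3 to F2), 3218 (F3 to F1) and 689 (F2 to F1). Leaving out 1 oocyte gave 59 to 91, 39 to 108, 65 to 267 and 37 to 152 in the F1 CD+DHT, HFHS+Veh and HFHS+DHT and F2 HFHS+DHT comparisons, and 86 to 279 between F2 and F1 CD+Veh.

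In F2, DESeq2's Wald test called 2 genes in CD+DHT and 1 in HFHS+Veh, none of them among the 10, and no other alternative called any. Folds near 0 changed sign. Library totals alone, with a median over all genes of -0.16 in CD+DHT, gave -0.0080 for Hsp90aa1, -0.15 for Hspd1 and -0.10 for Hsf1 in CD+DHT, and -0.068 for Hspa9, -0.0027 for Hsp90aa1 and -0.046 for Hsp90ab1 in HFHS+Veh. The mean of log2(CPM + 1) gave -0.075, -0.23 and -0.66 for Hsp90aa1, Hspd1 and Hsf1 in CD+DHT, and -0.10, -0.22, -0.19, -0.0032 and -0.078 for Hspa9, Hsp90aa1, Hsp90ab1, Hspd1 and Hsf1 in HFHS+Veh. Hspd1 in CD+DHT was -0.011 with DESeq2 size factors, -0.0028 with no filter and -0.0085 in DESeq2; voom gave 0.023 for Hspe1 in CD+DHT and -0.033 for Hsp90ab1 in HFHS+Veh; a floor of 500000 counts gave 0.0026 for Hspa8 in HFHS+Veh. Leaving out 1 animal gave -0.084 to 0.028 for Hsp90ab1, -0.13 to 0.15 for Hspd1, -0.068 to 0.077 for Hspe1 and -0.14 to 0.21 for Hsf1 in CD+DHT. In HFHS+Veh it gave -0.28 to 0.26 for Hspa8, -0.037 to 0.041 for Hspa9, -0.16 to 0.17 for Hsp90ab1, -0.034 to 0.19 for Hspd1 and -0.18 to 0.32 for Hsf1.

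No paired analysis was possible because the F2 animals carry different numbers in each group, and the numbers shared by F1 and F3 groups only name oocytes in groups that give no test. Depth limits the low members most: Hspa2 had 9 counts in all of F3 HFHS+Veh.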
